A study of Homo sapiens with 9 samples.

Results

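Human mitochondrial DNA is a small circle kept in many copies per cell, and its genes encode core subunits of the respiratory chain and ATP synthase together with the rRNAs and tRNAs that translate them. All 37 genes whose symbol begins with MT- were taken from the deposited counts, out of 60664 genes in all. They are 13 mRNAs, 2 rRNAs and 22 tRNAs, and the symbol alone decides which genes belong to the set. Of the 37 genes, 9 are encoded on the minus strand of chrM, namely the mRNA MT-ND6 and 8 tRNAs.

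The libraries came from MDA-MB-231, an established human breast cancer cell line with mesenchymal features. Scramble control (SC) cells, which carry a non-targeting hairpin, were kept at the baseline viscosity of 0.77 cP or at 8 cP, and cells with a hairpin against the ion channel TRPV4 (shTRPV4) were kept at 8 cP. Each of these 3 groups had 3 libraries from cells at day 6, the hairpins were stably integrated by lentivirus with puromycin selection, and viscosity was raised with methylcellulose. The design addresses whether viscosity, and TRPV4 at high viscosity, alter the transcriptome. No group held shTRPV4 cells at 0.77 cP, so whether a hairpin difference depends on viscosity cannot be told. Neither the labels nor the methods say what the replicate numbers mark, so the p-values measure the spread between these libraries, which may be technical, and the hairpin result rests on 1 TRPV4 hairpin.

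Transcription of mitochondrial DNA starts in its non-coding region and runs along each strand as long precursors, from which tRNAs are cut out, freeing the mRNAs and rRNAs between them. The nuclear genome supplies the polymerase POLRMT, the packaging and transcription factor TFAM, and the proteins that cut, polyadenylate, stabilize and degrade these RNAs. Most of the mRNAs receive short poly(A) tails, and in several of them the tail completes the stop codon. The RNA libraries were made by poly(A) selection, so a count of a mitochondrial RNA depends on its tail as well as on its amount.

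The ends of a few coding sequences are shown because they differ in whether the stop codon is whole or is completed by the tail. MT-ATP8 ends within MT-ATP6 on a shared mRNA, so no tail is added at its end. They were read 5′ to 3′ from chrM of GRCh38 (16569 bases), on the strand of the gene, and capitals mark the annotated stop bases. The first pair are the mRNAs with the smallest fold changes under TRPV4 knockdown, and the others are the 4 with the largest.
MT-ND3 (chrM:10387-10404): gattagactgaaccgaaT
MT-CO3 (chrM:9973-9990): tctattgatgagggtctT
MT-CYB (chrM:15870-15887): aaatactcaaatgggccT
MT-ND5 (chrM:14131-14148): ctactcctaatcacaTAA
MT-ATP8 (chrM:8555-8572): ttgcccccacaatccTAG
MT-ND6 (chrM:14149-14166, minus strand): attgctcgggggaatAGG
MT-ND3, MT-CO3 and MT-CYB end in a single T that the tail completes to a stop codon, whereas MT-ND5, MT-ATP8 and MT-ND6 hold the whole codon. An incomplete end therefore occurred both among the smallest and among the largest fold changes.

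Some members share bases, which matters for how their reads were assigned. MT-ATP8 and MT-ATP6 lie on 1 bicistronic mRNA and overlap by 46 bases at chrM:8527-8572, where the first capitals below are the start codon of MT-ATP6 and the last are the stop codon of MT-ATP8.
MT-ATP8/MT-ATP6 overlap: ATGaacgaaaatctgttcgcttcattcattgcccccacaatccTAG
MT-ND4L and MT-ND4 likewise lie on 1 mRNA and share 7 bases (atgctaa, chrM:10760-10766). How the counting treated reads in an overlap, and whether it used the strand, are not given in the sources used here, so values of these 4 genes and of the minus-strand genes are uncertain to that extent. Without strand, reads of MT-ND6 and of RNA from the opposite strand cannot be told apart.

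Total counts per library ranged from 64571681 to 103518036. TRPV4 itself was counted 40, 28 and 54 times in SC cells at 0.77 cP, 64, 45 and 24 times in SC cells at 8 cP and 7, 1 and 13 times in shTRPV4 cells, so the knockdown libraries lay below all control libraries (log2 fold change −2.51 ± 0.492 (SE) against SC at 8 cP, edgeR quasi-likelihood test with Benjamini-Hochberg adjustment, adjusted p = 0.00219). The line's markers VIM, CD44, EGFR, AXL and MSN were abundant, whereas ESR1, PGR and CDH1 had 0 to 12 counts per library, and ERBB2 and EPCAM were detected. Between shTRPV4 and SC cells at 8 cP, VIM (log2 fold change −0.28, adjusted p = 0.000193) and AXL (−0.31, 0.0017) were lower and MSN was higher (0.27, 0.00039, edgeR). CD44 and EGFR were not called there. Of 12 markers of blood, endothelial and stromal cells, 6 were too low to be tested. Of the other 6, none was called between shTRPV4 and SC cells at 8 cP, and PECAM1, COL1A1 and CD14 were lower in SC cells at 8 cP than at 0.77 cP.

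Mitochondrially encoded RNAs took a larger share of the counts in shTRPV4 cells than in either SC group. The 37 genes held 2.58%, 2.10% and 2.04% of all gene counts in SC cells at 0.77 cP (mean 2.24% ± 0.297 (SD), n = 3). They held 2.44%, 2.23% and 2.41% in SC cells at 8 cP (2.36% ± 0.114). They held 3.40%, 3.28% and 3.29% in shTRPV4 cells at 8 cP (3.32% ± 0.0675). All shTRPV4 libraries were above all SC libraries, with a ratio of means of 1.41 against SC at the same viscosity. The SC groups overlapped, and the highest SC share belonged to replicate 1 at 0.77 cP.

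The mRNAs accounted for most of the difference between the groups at 8 cP, 0.774 of 0.965 percentage points. They held 1.47% ± 0.245, 1.53% ± 0.113 and 2.31% ± 0.0748 (SD, n = 3 each) of counts in SC at 0.77 cP, SC at 8 cP and shTRPV4 at 8 cP, and the shTRPV4 mean was 1.51 times that of SC at 8 cP. The rRNAs held 0.771% ± 0.0729, 0.821% ± 0.0109 and 1.01% ± 0.0123, a ratio of 1.23 between the same groups. Both classes had shTRPV4 libraries above every SC library. The ratio of rRNA to mRNA counts was 0.420, 0.444 and 0.454 in the shTRPV4 libraries and 0.475 to 0.607 in the 6 SC libraries, again without overlap. These are shares of poly(A)-selected counts from bulk cultures, in which more mitochondrial RNA per cell, less nuclear RNA per cell and a changed mix of cells cannot be told apart.

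**Figure D1:**
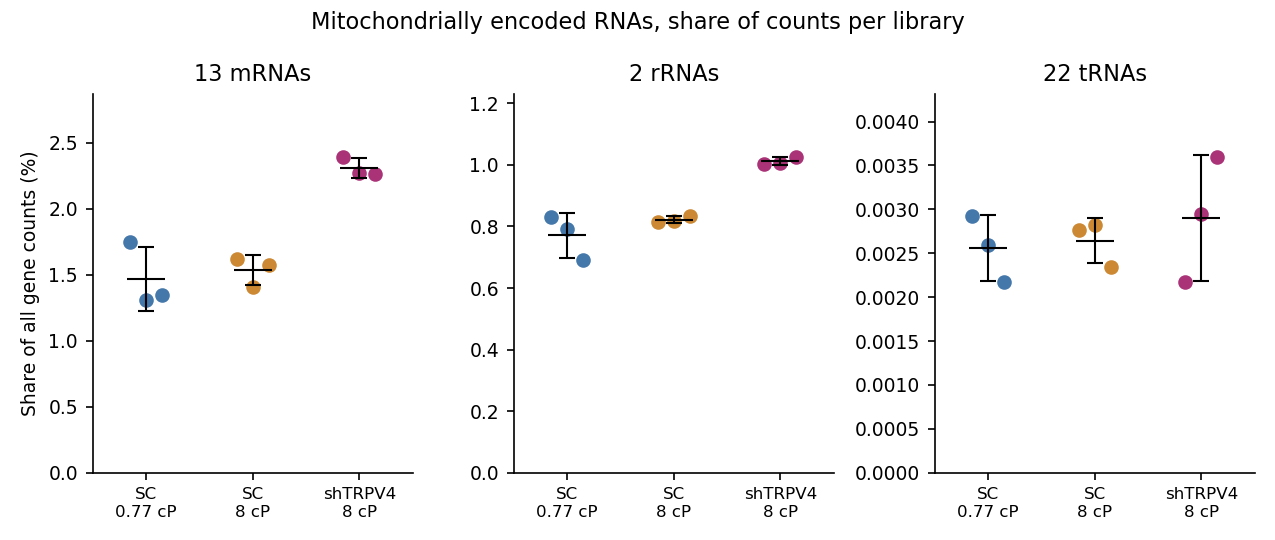
Share of all gene counts (%, each axis from 0) held by the 13 mRNAs, 2 rRNAs and 22 tRNAs in each library (points), with the group mean and SD (bars, n = 3). The mRNA share was 2.26% to 2.39% in shTRPV4 libraries and 1.30% to 1.75% in SC libraries, whereas the tRNA shares of the groups overlapped.

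Counts were tested gene by gene across all 18264 genes that passed edgeR's low-count filter, and a gene is said to be called, or to have risen or fallen, at an adjusted p below 0.05. All 13 mRNAs, both rRNAs and 5 of the 22 tRNAs passed this filter. The comparison of shTRPV4 with SC cells at 8 cP called 14 of these 20 members, all of them higher and none lower: 12 of the 13 mRNAs and both rRNAs. Over all genes tested, 20.0% were called in either direction and 9.02% were called higher. The median log2 fold change was 0.60 over the mRNAs and 0.0006446 over all genes. In each of the 14 called members every shTRPV4 library exceeded every SC library at 8 cP, an arrangement found for 17.6% of all genes tested. Levels below are CPM, counts scaled to a common library total after edgeR's trimmed mean of M-values (TMM) adjustment.

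The largest fold changes were those of MT-ND5, MT-CYB, MT-ATP8 and MT-ND6. MT-ND5, a membrane subunit of the proton-pumping complex I, was at 961, 797 and 867 CPM in SC cells at 8 cP and at 1549, 1420 and 1471 CPM in shTRPV4 cells. Its log2 fold change was 0.76 ± 0.110 (SE, adjusted p = 0.000195 in the edgeR test). The groups were far apart, since the lowest shTRPV4 library was well above the highest SC library. MT-CYB, the only mitochondrially encoded subunit of complex III, was at 952, 804 and 925 CPM in SC cells at 8 cP against 1572, 1459 and 1469 CPM in shTRPV4 cells. It rose by 0.75 ± 0.0957 on the log2 scale (adjusted p = 6.68e-05, edgeR). The 2 genes thus rose by about the same amount, and both had their highest shTRPV4 value in replicate 1.

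MT-ND6 is the only mRNA on the minus strand and also encodes a subunit of complex I. It was at 244, 201 and 216 CPM in SC cells at 8 cP and at 375, 350 and 377 CPM in shTRPV4 cells, with a log2 fold change of 0.74 ± 0.118 (adjusted p = 0.000449, edgeR). Counts assigned to the minus-strand mRNA therefore rose along with those of the plus-strand mRNAs, of which 11 of 12 were called. Because it is not given whether the counting used the strand, part of the MT-ND6 counts may be RNA from the opposite strand. Of the subunits of the ATP synthase membrane part, MT-ATP8 was at 216, 181 and 210 CPM in SC cells at 8 cP and at 349, 322 and 346 CPM in shTRPV4 cells (log2 fold change 0.74 ± 0.0938, adjusted p = 5.88e-05, edgeR). MT-ATP6, the proton-channel subunit on the same mRNA, was at 1123, 934 and 1093 CPM against 1755, 1645 and 1684 CPM (0.69 ± 0.0977, adjusted p = 0.000160). The pair on 1 mRNA differed in fold change by less than either standard error.

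Of the complex I genes, 4 others were called. MT-ND4 was at 1983, 1651 and 2025 CPM in SC cells at 8 cP and at 3050, 2881 and 2857 CPM in shTRPV4 cells (log2 fold change 0.64 ± 0.104). MT-ND4L, which shares its mRNA, had a log2 fold change of 0.60 ± 0.0871, and MT-ND1 and MT-ND2 had 0.57 ± 0.0980 and 0.55 ± 0.0804. The adjusted p of these 4 genes lay between 0.000207 and 0.000805 (edgeR).

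The 3 core subunits of cytochrome c oxidase (complex IV) all rose, MT-CO3 and MT-CO2 by the least among the called mRNAs. MT-CO1, the catalytic subunit and the mRNA with the most counts, was at 3493, 2976 and 3442 CPM in SC cells at 8 cP and at 5087, 4724 and 4758 CPM in shTRPV4 cells (log2 fold change 0.56 ± 0.105, adjusted p = 0.00165, edgeR). MT-CO2, which receives electrons from cytochrome c, was at 2264, 2019 and 2180 CPM against 2958, 3051 and 3005 CPM (0.48 ± 0.0734, adjusted p = 0.000308). MT-CO3 was at 2002, 1874 and 1950 CPM against 2579, 2555 and 2624 CPM (0.41 ± 0.0618, adjusted p = 0.000259). All 3 were without overlap between the groups.

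MT-ND3 was the mRNA that was not called. This subunit of complex I was at 691, 714 and 636 CPM in SC cells at 8 cP and at 670, 751 and 816 CPM in shTRPV4 cells, and the groups overlapped. Its log2 fold change was 0.13 ± 0.0681 (adjusted p = 0.198, edgeR), with a 95% interval from −0.0132 to 0.277. That interval ends below the lower bound of every other mRNA at this comparison, the nearest being MT-CO3 with 0.282 to 0.545. Without shTRPV4 replicate 1, its lowest library in that group, MT-ND3 passed the test at 0.20 (adjusted p = 0.0284, edgeR).

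Both rRNAs rose by less than the called mRNAs. MT-RNR2, the rRNA of the large mitochondrial ribosomal subunit and the member with the most counts, was at 7576, 7692 and 7898 CPM in SC cells at 8 cP and at 9185, 9257 and 9479 CPM in shTRPV4 cells (log2 fold change 0.27 ± 0.0583, adjusted p = 0.00425, edgeR). MT-RNR1, the rRNA of the small subunit, was at 587, 554 and 500.04 CPM against 661, 650 and 758 CPM (0.33 ± 0.0877, adjusted p = 0.0143). The spread of MT-RNR1 within groups was wide for its change. Its call was lost without SC replicate 3 at 8 cP (adjusted p = 0.0579) and without shTRPV4 replicate 3 (adjusted p = 0.0585, edgeR).

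**Figure D2:**
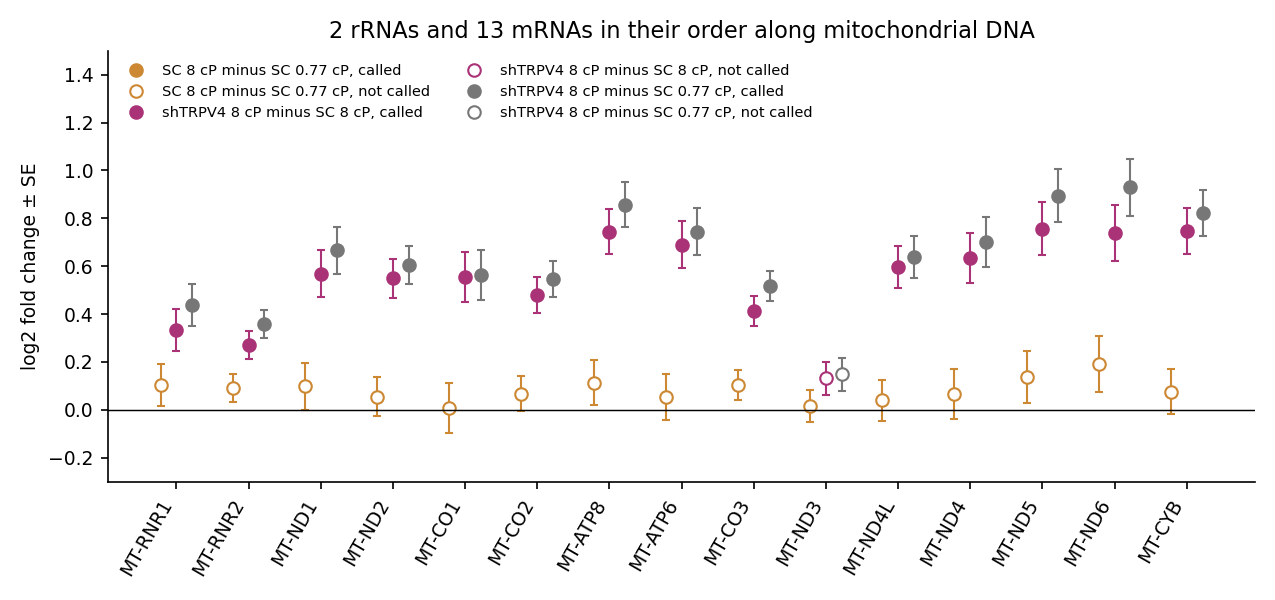
Log2 fold change (vertical axis, bars ± SE) of both rRNAs and the 13 mRNAs, placed in their order along mitochondrial DNA, in 3 comparisons; filled points were called (adjusted p below 0.05) and open points were not. Under TRPV4 knockdown against SC at 8 cP all but MT-ND3 were called, from 0.27 for MT-RNR2 to 0.76 for MT-ND5, whereas the viscosity comparison in SC cells called none.

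Raising viscosity from 0.77 to 8 cP in SC cells called none of the 20 members by edgeR, and none of the 20 had an unadjusted p below 0.05. DESeq2 also called none. Over all genes tested, 19.3% were called in either direction and 9.57% were called higher. The 13 mRNAs had log2 fold changes between 0.01 and 0.19 with a median of 0.07, the rRNAs had 0.09 and 0.10, and all 15 had overlapping groups. MT-ND6 had the largest value, 0.19 ± 0.118 with a 95% interval from −0.06 to 0.443, and MT-CO1 the smallest, 0.01 ± 0.105 with an interval from −0.215 to 0.230. These intervals leave room for changes of either sign in both genes.

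That comparison depended on 1 library. SC replicate 1 at 0.77 cP was the highest of its group in all 13 mRNAs, for example 4088 CPM of MT-CO1 beside 2849 and 2921 CPM, and 248 CPM of MT-ND6 beside 164 and 166 CPM. Without it, 5 members were called higher at 8 cP: MT-ND6 (log2 fold change 0.42, adjusted p = 0.00381), MT-ND5 (0.34, 0.0125), MT-ND1 (0.27, 0.0380), MT-ATP8 (0.27, 0.0458) and MT-CO3 (0.20, 0.0283), all by edgeR. In the same setting the number of all genes called went from 3518 to 1409. Leaving out any other library called none of the members, and testing without a low-count filter called MT-ND5 (adjusted p = 0.0413) and MT-ND6 (0.00224, edgeR).

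The comparison of shTRPV4 at 8 cP with SC at 0.77 cP, which differs in both hairpin and viscosity, called 14 of the 20 members higher and none lower, beside 42.4% of all genes in either direction and 20.4% higher. It shares its shTRPV4 libraries with the knockdown comparison, and the SC libraries at 8 cP enter both of the preceding comparisons, so the 3 are not independent. In each of the 14 called members every shTRPV4 library exceeded every SC library at 0.77 cP, which held for 24.5% of all genes tested. The log2 fold changes of the called mRNAs ran from 0.52 ± 0.0619 for MT-CO3 to 0.93 ± 0.119 for MT-ND6. MT-ND6 was at 248, 164 and 166 CPM in SC cells at 0.77 cP, all below the 350 to 377 CPM of the shTRPV4 libraries. MT-RNR2 and MT-RNR1 had 0.36 ± 0.0583 and 0.44 ± 0.0879. MT-ND3 was again not called (0.15 ± 0.0682, adjusted p = 0.0938, edgeR), and it passed without shTRPV4 replicate 1 (0.22, adjusted p = 0.00782), with no TMM factor (0.18, 0.0411) and without a low-count filter (0.15, 0.0115, edgeR).

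The composition of the mRNA pool was examined as each mRNA's share of the summed counts of the 13 mRNAs, a measure that does not depend on the scaling between libraries. Between the SC groups all 13 shares overlapped, although leaving out SC replicate 1 at 0.77 cP separated 3 upward and 1 downward. Between shTRPV4 and SC cells at 8 cP, MT-ATP8, MT-ATP6, MT-ND5, MT-ND6 and MT-CYB had higher shares without overlap, MT-CO2, MT-CO3 and MT-ND3 had lower ones (5 mRNAs without shTRPV4 replicate 1), and the other 5 overlapped. Because shares sum to a whole, a gain in some members lowers others. Pool shares exist only for these mRNAs, so the background is given in CPM. Between shTRPV4 and SC cells at 8 cP, 3210 of 18264 genes tested were higher without overlap and 3427 lower. Between the SC groups 3536 were higher and 3472 lower at 8 cP.

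The shares at the ends of this range were those of MT-ND3 and MT-ND5. MT-ND3 made up 4.24%, 5.04% and 4.02% of the pool in SC cells at 8 cP and 4.06%, 5.14% and 4.63% in SC cells at 0.77 cP, but 2.85%, 3.37% and 3.62% in shTRPV4 cells. Its mean share in shTRPV4 cells was 0.739 times that in SC cells at 8 cP. MT-ND5 made up 5.90%, 5.63% and 5.48% of the pool in SC cells at 8 cP and 6.60%, 6.37% and 6.52% in shTRPV4 cells, a ratio of means of 1.15. The share of MT-CO1 stayed within 21.0% to 23.2% in all 9 libraries. Against SC cells at 0.77 cP, MT-ND4 joined the 5 mRNAs of higher share, and MT-ND3 was the only mRNA with a lower share outside that group's range, a count that became 3 with MT-CO1 left out of the pool or without SC replicate 1 at 0.77 cP, and 2 without SC replicate 3 at 0.77 cP or without any 1 shTRPV4 library. In CPM, 4473 of 18264 genes tested were higher and 4766 lower without overlap in that comparison.

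**Figure D3:**
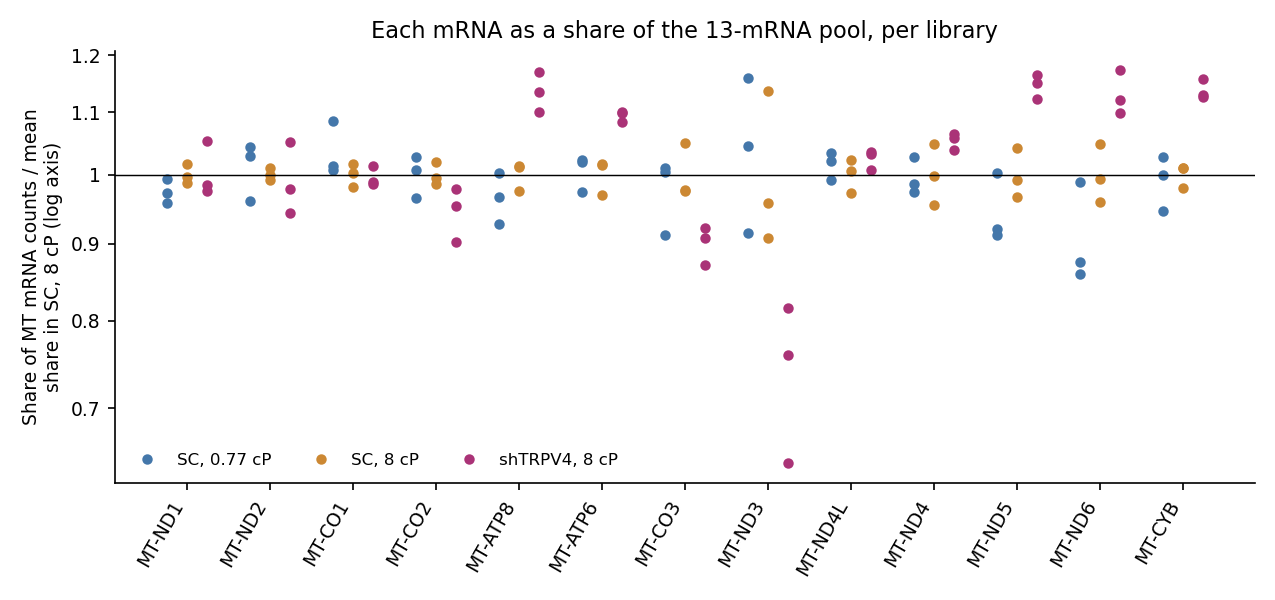
Each mRNA's share of the summed counts of the 13 mRNAs in each library, divided by its mean share in SC cells at 8 cP (log axis), with mRNAs in their order along mitochondrial DNA. The shTRPV4 points of MT-ND3 lie below all SC points, with a mean ratio of 0.739, and those of MT-ATP8, MT-ATP6, MT-ND5, MT-ND6 and MT-CYB lie above all SC points.

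Members can be compared with each other only per length, as CPM per kb of annotated gene. In SC cells at 0.77 cP the order ran from MT-RNR2 at 4651 ± 427 (SD, n = 3), MT-CO2 at 3006 ± 404, MT-CO3 at 2303 ± 246 and MT-CO1 at 2131 ± 451 down to MT-RNR1 at 534 ± 75.5, MT-ND5 at 439 ± 98.2 and MT-ND6 at 367 ± 91.5 CPM per kb. The complex IV subunits had the 3 highest mRNA means in every group. Genes on 1 mRNA also differed in this measure in SC cells at 0.77 cP. MT-ATP8 was at 903 ± 158 beside 1486 ± 276 for MT-ATP6, and MT-ND4L at 907 ± 158 beside 1307 ± 257 for MT-ND4. Differences in CPM per kb therefore cannot be read directly as differences in the amount of an mRNA. In shTRPV4 cells MT-CO2 stood at 4393 ± 67.6, MT-CO3 at 3298 ± 45.1 and MT-CO1 at 3149 ± 130, the last pair overlapping. The rRNA of the small subunit was far below that of the large subunit in these poly(A)-selected libraries, at 723 ± 62.6 beside 5970 ± 98.4 CPM per kb in shTRPV4 cells.

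The order changed at MT-ND3. In SC cells at 8 cP it followed MT-CO1, which it overlapped (1966 ± 115 beside 2142 ± 185 CPM per kb), and it lay above MT-ATP6 at 1542 ± 149 without overlap. In shTRPV4 cells MT-ATP6 at 2489 ± 81.8 lay above MT-ND3 at 2154 ± 212 without overlap, and MT-ND3 overlapped MT-ND4 at 2126 ± 76.3. These levels leave out counts assigned to MTATP6P1, a close nuclear copy of MT-ATP6 described below. In SC cells at 8 cP it held 259 ± 23.6 CPM beside 1050 ± 102 CPM of MT-ATP6. In shTRPV4 cells it held 415 ± 10.4 beside 1695 ± 55.7 CPM. The order of MT-ATP6 and MT-ND3 thus depends on how reads were assigned, and it was not tested with the copy added. MT-ND2, MT-ND4L, MT-ATP8 and MT-ND1 were neighbours in the middle of the order in every group, and in every group each of them overlapped the next.

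**Figure D4:**
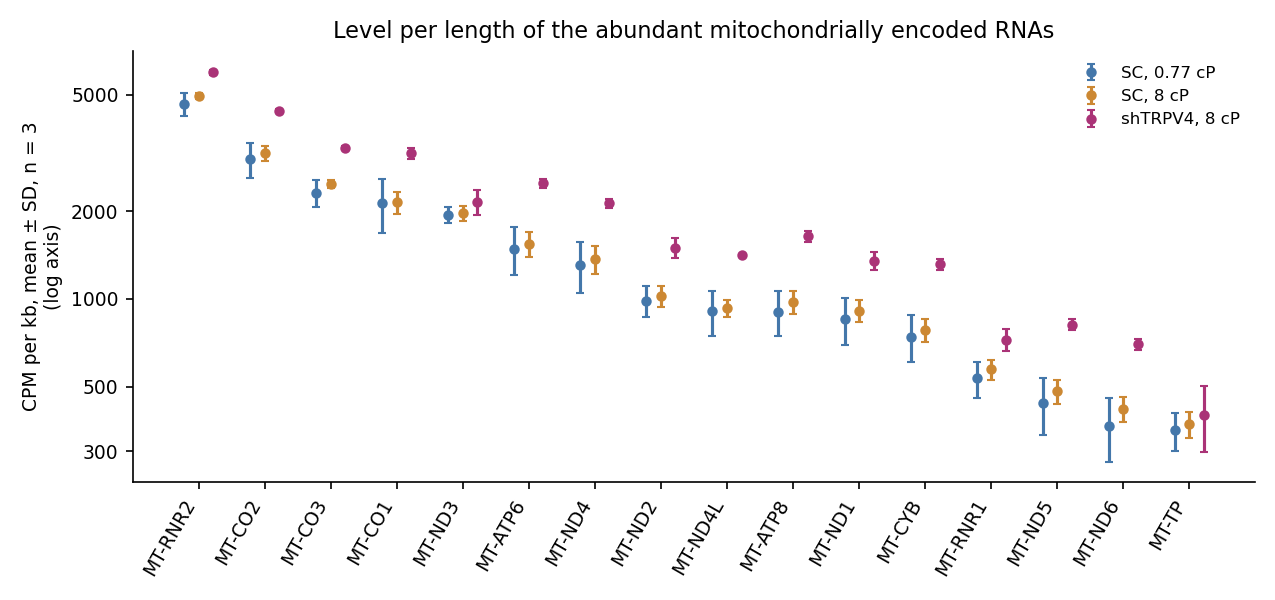
Level per length (CPM per kb, log axis, mean ± SD, n = 3 libraries per group) of the members with a mean above 300 CPM per kb in SC cells at 0.77 cP, ordered by that group. The levels span from 4651 CPM per kb for MT-RNR2 to 355 for the tRNA MT-TP, and all shTRPV4 libraries lay above all SC libraries except at MT-ND3 and MT-TP.

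The tRNAs were nearly absent, and most tRNA counts were assigned to genes annotated on the minus strand. Whether the reads came from that strand is not known, because strand use in the counting is not given. The 22 tRNAs together held 0.0638% to 0.127% of the mitochondrial counts, and 13 of them had 0 counts in all 9 libraries, which allows up to 0.0290 to 0.0465 CPM per library on a floor of 3 counts, covering counting error only. Mature tRNAs are short and carry no poly(A) tail of this kind, so a poly(A) library samples them poorly. MT-TP, the proline tRNA, made up 93.2% to 95.5% of the tRNA counts in each library. It and the next most counted, the asparagine tRNA MT-TN, are shown as gene sequences on the minus strand, both in lower case throughout.
MT-TP (chrM:15956-16023): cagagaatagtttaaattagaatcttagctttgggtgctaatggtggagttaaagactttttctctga
MT-TN (chrM:5657-5729): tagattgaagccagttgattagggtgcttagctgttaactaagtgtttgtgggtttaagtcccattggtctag
MT-TP had 2594, 1573 and 2095 counts in SC cells at 0.77 cP, 2592, 2629 and 2029 in SC cells at 8 cP and 1846, 2154 and 3090 in shTRPV4 cells. The groups overlapped, and MT-TP was not called under knockdown at 8 cP (log2 fold change 0.11 ± 0.144, adjusted p = 0.649, edgeR, 95% interval −0.196 to 0.417). MT-TN had 75 to 137 counts per library, and MT-TC, MT-TY and MT-TF, the other tRNAs tested, had 4 to 21. None of the 5 was called in any of the 3 comparisons, except that MT-TP passed between shTRPV4 at 8 cP and SC at 0.77 cP without shTRPV4 replicate 1 (0.36, adjusted p = 0.0172) and without a low-count filter (0.18, 0.0333, edgeR). MT-TF, whose SC libraries at 8 cP had 11, 12 and 10 counts and whose shTRPV4 libraries had 10, 7 and 5, moved by a few counts only.

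Segments of mitochondrial DNA have been copied into the nuclear genome, and a stretch of human chromosome 1 holds close copies of several mRNA genes. Counts of these copies are uncertain, because reads from the mitochondrial RNA can align to them and the reverse. In GRCh38 MTATP6P1 (chr1:633696-634376) differed from MT-ATP6 at 10 of 681 aligned bases (98.5% identity), with identical runs of up to 141 bases. MTCO1P12 (chr1:631074-632616) differed from MT-CO1 at 20 of 1542 bases, with runs of up to 245, and MTND2P28 (chr1:629640-630683) from MT-ND2 at 17 of 1042, with runs of up to 266.

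These copies were counted and changed much as the genes they resemble. MTATP6P1 averaged 259 ± 23.6 CPM in the SC libraries at 8 cP (SD of 3 libraries) against 415 ± 10.4 CPM in shTRPV4 cells (log2 fold change 0.68 ± 0.0921 (SE), adjusted p = 0.000107, edgeR), beside 0.69 for MT-ATP6. MTCO1P12 was at 49.9 ± 4.24 and 79.5 ± 2.81 CPM (0.67 ± 0.0874, adjusted p = 7.63e-05) beside 0.56 for MT-CO1. MTND2P28 was at 99.3 ± 6.80 and 143 ± 12.1 CPM (0.53 ± 0.0806, adjusted p = 0.000301) beside 0.55 for MT-ND2. MTCO2P12 and MTCO3P12 stayed below 1 CPM on average in each group and were not called. Adding the counts of 7 copies to their mitochondrial genes, an alternative chosen after seeing the data, left 14 members called. Shares of the mRNA pool and levels per kb were not recomputed with the copies added.

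Counting either direction, nuclear genes that serve mitochondrial gene expression and DNA upkeep were called at about the rate of all genes. More of them rose than fell, unlike all genes tested. Of 180 tested in 8 lists, 25 rose and 7 fell under knockdown at 8 cP, which is 17.8% beside 20.0% of all genes. Of all 18264 genes tested, 1647 (9.02%) rose and 2002 fell. This difference in direction was not tested. The median log2 fold change of the 180 genes was 0.04. Of 80 tested nuclear subunits of complexes I to V, 2 rose and 6 fell (10% called), with a median of −0.05. With no TMM factor the numbers were 42 higher in the 8 lists, and 5 higher and 3 lower among the subunits. The 25 became 5, 8 and 10 without SC replicate 1 or 2 at 8 cP or shTRPV4 replicate 2, and the 7 became 2 without SC replicate 2 at 8 cP and 4 without shTRPV4 replicate 1 or 2. The 6 subunits became 3 without SC replicate 1 at 8 cP or shTRPV4 replicate 1, 2 without SC replicate 2 at 8 cP and 15 without shTRPV4 replicate 3, and the 2 higher became 1 without SC replicate 1 at 8 cP.

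Of the 10 genes listed under transcription 2 rose, MTERF3 (log2 fold change 0.16 ± 0.0512) and MTERF2 (0.31 ± 0.104), both members of the mTERF family of mitochondrial nucleic acid-binding proteins. TFB1M, placed in this list by its name, was not called (−0.23 ± 0.0924, adjusted p = 0.0920, edgeR). Of 8 genes of RNA stability and decay 3 rose: MTPAP, the mitochondrial poly(A) polymerase (0.19 ± 0.0509, adjusted p = 0.0176), and PNPT1 (0.25 ± 0.0682, 0.0184) and SUPV3L1 (0.16 ± 0.0513, 0.0393), the nuclease and helicase of the mitochondrial degradosome. MTPAP averaged 27.6 ± 0.206 CPM in the SC libraries at 8 cP (SD of 3 libraries) against 31.4 ± 0.373 CPM in shTRPV4 cells. Of 23 RNA processing genes 4 rose and none fell, led by FASTKD3 (0.21 ± 0.0582), the tRNA modification enzyme MTO1 (0.17 ± 0.0472) and the tRNA thiouridylase TRMU (0.20 ± 0.0626). These counts rested on single libraries: without SC replicate 1 at 8 cP, and likewise without SC replicate 2 at 8 cP, none of the 3 lists had a gene called higher. The 2 transcription genes also became 0 without any 1 shTRPV4 library and 1 without SC replicate 2 at 0.77 cP. The 3 stability genes became 1 without shTRPV4 replicate 1 or 2, and the 4 processing genes became 1 without SC replicate 3 at 8 cP and 2 without shTRPV4 replicate 2 or 3.

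Genes of mitochondrial DNA replication gave 2 higher and 1 lower of 17. TWNK, the replicative helicase, was at 32.0 ± 0.437 CPM in SC cells at 8 cP and 41.4 ± 1.01 CPM in shTRPV4 cells (0.37 ± 0.0539, adjusted p = 0.000189, edgeR). The mitochondrial topoisomerase gene TOP1MT rose by 0.30 ± 0.0551 and the matrix protease gene LONP1 fell by 0.17 on the log2 scale. Of 77 proteins of the mitochondrial ribosome 7 rose and 4 fell, with MRPL3 at −0.40 ± 0.0461, MRPS25 at 0.33 ± 0.0522 and MRPS18B at 0.21 ± 0.0393. Neither list moved in 1 direction. With 1 library left out the replication genes called ranged from 2 to 5 higher, with 5 without SC replicate 3 at 0.77 cP, and from 0 to 1 lower, with 0 without SC replicate 2 at 8 cP. The 7 ribosomal proteins became 2 without SC replicate 1 or 3 at 8 cP or shTRPV4 replicate 2, and the 4 became 1 without SC replicate 2 at 8 cP.

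Of 14 translation factors, the elongation factor gene GFM1 rose (0.27 ± 0.0533) and the initiation factor gene MTIF3 fell by 0.25, and of 22 tRNA charging genes 3 rose, AARS2 (0.15 ± 0.0456) and QRSL1 (0.27 ± 0.0891) among them, and 1 fell. Of 11 biogenesis regulators 3 rose: ESRRA, an oestrogen-related receptor (0.18 ± 0.0475, adjusted p = 0.0153), and the coactivator genes PPRC1 (0.27 ± 0.0774, 0.0230) and PPARGC1B (0.54 ± 0.183, 0.0499, edgeR). PPARGC1B was scarce, at 2.20 ± 0.343 CPM in SC cells at 8 cP and 3.18 ± 0.827 CPM in shTRPV4 cells. The 3 biogenesis regulators became 0 without SC replicate 1 at 8 cP and 1 without SC replicate 2 at 8 cP or shTRPV4 replicate 1. The 3 tRNA charging genes became 0 without SC replicate 1 or 2 at 8 cP or shTRPV4 replicate 2, and the 1 lower translation factor became 0 without SC replicate 2 at 8 cP or shTRPV4 replicate 1 or 2. Without SC replicate 3 at 8 cP, or without shTRPV4 replicate 3, there were 2 higher and 2 lower translation factors.

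The nuclear subunits gave few calls per complex. In complex I, 1 of 37 rose (NDUFA1, 0.36 ± 0.0777) and 2 fell (NDUFS5, −0.28 ± 0.0725, and NDUFS4, −0.25 ± 0.0839). In complex II, which has no mitochondrially encoded subunit, SDHB fell (−0.14 ± 0.0434) among 4. In complex III, UQCRC1 (−0.16 ± 0.0384) and UQCRH (−0.21 ± 0.0651) fell among 9. In complex IV none of 12 was called by edgeR, the smallest adjusted p being 0.0816 for COX6A1 (−0.15 ± 0.0583). In complex V, ATP5MC1 rose (0.24 ± 0.0592) and ATP5IF1, an inhibitor of the enzyme, fell (−0.22 ± 0.0499) among 18. With 1 library left out the number called lower ranged from 0 to 4 in complex I, 0 to 1 in complex II, 1 to 3 in complex III, 0 to 2 in complex IV and 1 to 5 in complex V, in complexes I, III, IV and V highest without shTRPV4 replicate 3. The complex II count was 0 without any 1 SC library at 8 cP and without shTRPV4 replicate 1 or 2, and the higher call of complex V became 0 without SC replicate 1 at 8 cP.

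**Figure D5:**
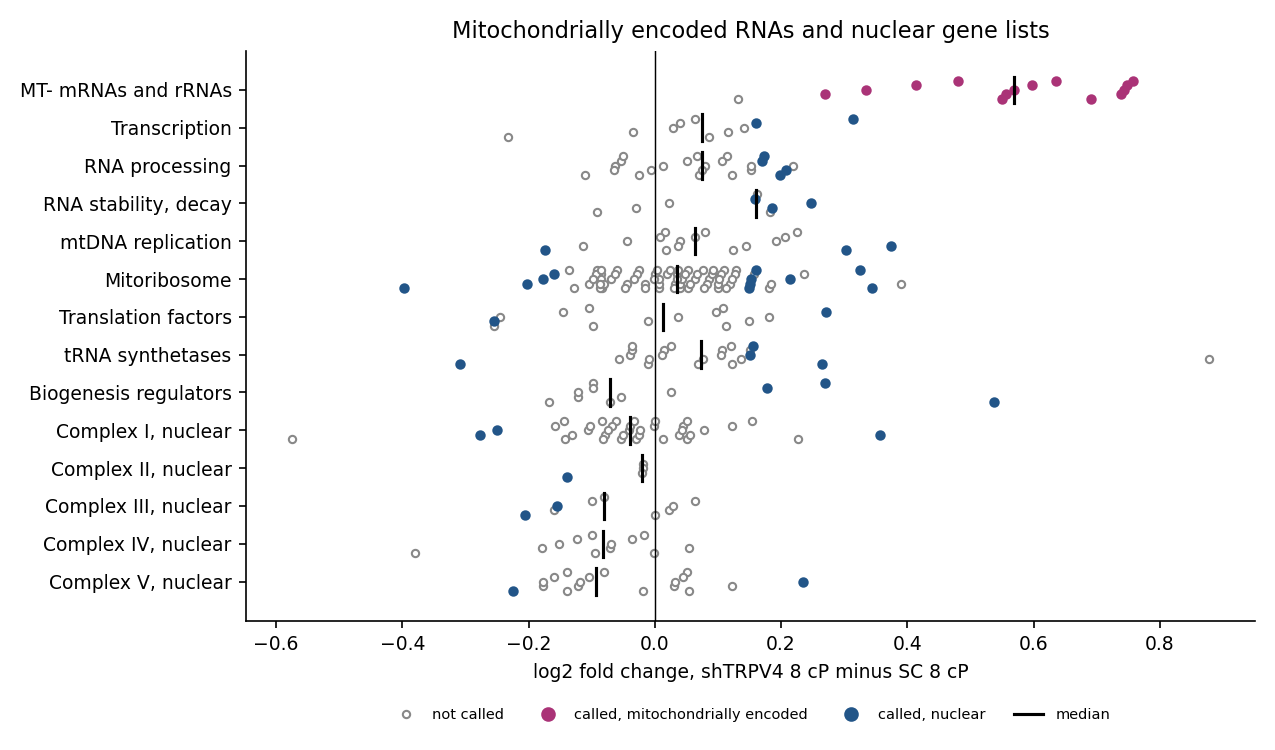
Log2 fold change between shTRPV4 and SC cells at 8 cP (horizontal axis) of the 15 mitochondrially encoded mRNAs and rRNAs and of the tested genes in 13 nuclear lists, 1 point per gene, filled where called, with the list median as a black bar. The mitochondrially encoded genes have a median of 0.57, and the median of every nuclear list lies between −0.09 and 0.16.

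Under viscosity alone in SC cells no member was called. Of the 180 nuclear genes of mitochondrial gene expression and DNA upkeep, 29 rose and 4 fell (18.3% beside 19.3% of all genes). Of the 80 subunits 6 rose and 2 fell. Over all 18264 genes tested, 1748 (9.57%) rose and 1770 fell. The 29 became 10 to 19 without SC replicate 1 or 2 at 0.77 cP or SC replicate 2 or 3 at 8 cP, the 4 became 1 or 2 without SC replicate 1 or 2 at 0.77 cP or SC replicate 1 or 3 at 8 cP, the 6 became 1 or 3 without the libraries named for the 29, and the 2 became 0 to 14 depending on which of the 9 libraries was left out. Among the genes of RNA stability, LRPPRC, whose product binds and stabilizes mitochondrial mRNAs, rose by 0.29 ± 0.0458 (adjusted p = 0.000862), PDE12 by 0.32 ± 0.0575 and PNPT1 by 0.36 ± 0.0690 (edgeR), and this list had 3 genes called higher whichever library was left out. TFAM rose by 0.13 ± 0.0443 (adjusted p = 0.0462), GFM1 by 0.41 ± 0.0539, MARS2 by 0.63 ± 0.0869 and ATAD3B by 0.35 ± 0.0778. The 1 transcription gene called became 0 without any 1 library except SC replicate 3 at 0.77 cP and shTRPV4 replicate 1. The transcription factor gene MYC was at 434 ± 7.96 CPM at 0.77 cP and 192 ± 2.33 CPM at 8 cP (−1.18 ± 0.0533, adjusted p = 6.4e-10).

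Between shTRPV4 at 8 cP and SC at 0.77 cP, 66 of the 180 rose and 13 fell (43.9% called). Of the 80 subunits 8 rose and 26 fell (42.5% called). Over all 18264 genes tested 42.4% were called, of which 3732 (20.4% of all) rose and 4020 fell. The 8 became 5 without SC replicate 1 at 0.77 cP or shTRPV4 replicate 2, 14 without shTRPV4 replicate 1 and 15 with no TMM factor. Of the 8 genes of RNA stability 6 rose and 1 fell, with PNPT1 at 0.61 ± 0.0690, PDE12 at 0.48 ± 0.0576 and LRPPRC at 0.31 ± 0.0459, and the 1 became 0 without SC replicate 1 or 2 at 0.77 cP or shTRPV4 replicate 1. GFM1 (0.68 ± 0.0539), MARS2 (0.78 ± 0.0870), TWNK (0.55 ± 0.0544), MRPS25 (0.44 ± 0.0526), FASTKD3 (0.49 ± 0.0590) and MTERF3 (0.27 ± 0.0515) rose as well, and PPARGC1B rose by 0.96 ± 0.189. In complex IV, 1 of 12 nuclear subunits rose and 6 fell, for example COX7C (−0.42 ± 0.0908) and COX6A1 (−0.31 ± 0.0584), whereas its 3 mitochondrially encoded mRNAs all rose. No test compared the lists with each other, and the nuclear changes were not tied to those of the members by any test.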

How the data were processed

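Per the labels and methods, stranded poly(A) libraries were sequenced as paired reads, aligned with HISAT2 (2.2.1) to GRCh38 and counted per Ensembl gene with HTSeq (0.13.5); the deposited values are these raw counts, not normalized in the files. How multi-mapping reads were treated is not given in the sources used here, which bears on genes with nuclear copies. Gene symbols, positions and sequences came from GENCODE 44 and GRCh38, a later annotation than that of the counts. Of 60664 identifiers, 60463 had a symbol.

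Groups followed the labels. Counts of all 9 libraries were fitted together with edgeR (4.0.16, R 4.3.3): filterByExpr, TMM, quasi-likelihood test, Benjamini-Hochberg adjustment over 18264 genes, threshold 0.05. Shares of counts were described without a test. The code was tested on simulated data. Replicates differed by more than sampling noise (chi-square per degree of freedom 5.87 to 26.3), so none was merged. Alternatives were upper-quartile, nuclear-only and no scaling, other filters, the compared samples only, a replicate block, leaving out each library, and DESeq2 (1.42.0).

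The set of genes described and the gene lists were chosen with earlier results of these data known, although membership of the set follows from the symbol. Named were all mRNAs and rRNAs, tested tRNAs, tested nuclear copies, TRPV4 and, from each nuclear list, genes among the 3 with the smallest adjusted p in a comparison. A gene that this rule would name is not reported here. Of 309 list entries, 297 matched a gene; 12 copies of MT-RNR2 did not.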

Additional observations from a re-analysis of the deposited data

How the results depend on the processing

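The 14 members called higher in shTRPV4 against SC cells at 8 cP numbered 14 under every alternative with all libraries kept, and 13 to 15 when 1 library was left out. No called member changed sign. Of the members' fold changes tried under alternatives, 1050 stayed on their side of the threshold, 13 gained a call and 2 lost one. Values that were not called did change sign over left-out libraries: with viscosity those of MT-CO1, MT-ATP6, MT-ND3, MT-ND4L, MT-ND4, MT-CYB, MT-TP and MT-TY, with knockdown at 8 cP those of MT-TN and MT-TP, and in shTRPV4 against SC at 0.77 cP those of MT-TF, MT-TC and MT-TP. MT-CO1 also changed sign with viscosity under upper-quartile scaling. For SC at 8 cP against 0.77 cP, the count of 0 became 2 with no low-count filter and ranged from 0 to 5 over left-out libraries. Over the same left-out libraries the number of all genes called higher there ranged from 671 to 2359 and lower from 731 to 2169, and under knockdown at 8 cP from 893 to 1743 and from 1286 to 2093. The nuclear genes of mitochondrial gene expression ranged from 10 to 37 higher and 1 to 6 lower with viscosity, and from 5 to 30 higher and 2 to 9 lower with knockdown; the nuclear subunits ranged from 1 to 8 higher and 0 to 14 lower with viscosity, from 1 to 3 higher and 2 to 15 lower with knockdown, and from 5 to 14 higher in shTRPV4 against SC at 0.77 cP. Called lower with viscosity, the subunits numbered 4 with no TMM factor, 15 with no low-count filter, 14 with only the 6 compared samples, 0 with the replicate block and 9 by DESeq2. With no TMM factor the knockdown gave 42 nuclear genes of gene expression higher, and 5 subunits higher and 3 lower; with no low-count filter it gave 11 subunits lower, and shTRPV4 against SC at 0.77 cP gave 15 subunits higher with no TMM factor. The cause of these shifts was not tested.

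The knockdown difference in the share of all counts, 0.965 percentage points, was 0.785 with rRNA counts left out of both terms and 0.797 over protein-coding counts, and that of the rRNAs was 0.206 over nuclear counts. Between SC groups, leaving out 1 library separated 0 to 3 mRNA shares upward and 0 to 1 downward; the shares lower under knockdown at 8 cP ranged from 3 to 5, and those lower against SC at 0.77 cP from 1 to 3, with 3 when MT-CO1 was left out of the pool.

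Same-numbered libraries did not deviate together: the correlations of their deviations from group means lay between −0.0546 and 0.0904 over 9 pairs. With the replicate block the members called were 0, 14 and 14, and all genes called were 3475, 3607 and 7731 against 3518, 3649 and 7752 without it. Low counts limit the tRNAs, of which 17 could not be tested, and poly(A) selection limits what any member's level stands for.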
